A study of Homo sapiens with 6 samples.

Results

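The endoplasmic reticulum (ER) folds secreted and membrane proteins, discards the ones that misfold and loads the rest into vesicles for the Golgi. These results describe 44 human genes of those processes in HCT116 cells given the microRNA miR-224, of 19775 genes with a value. The genes were chosen by function, from coat protein complex II (COPII), ER-associated degradation (ERAD), ER chaperones and the unfolded protein response (UPR), with results of this comparison already known. Each stands as its brightest probe set, by mean over the 6 arrays, among those annotated with that gene symbol alone. That gave a value for 43 of the 44. The probe set listed for SYVN1, the ubiquitin ligase of the HRD1 complex, carries a second gene symbol, so SYVN1 was not analysed here.

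HCT116 is an established epithelial line from a human colon carcinoma. The comparison is between 3 arrays of cells transfected with control oligos and 3 arrays of cells transfected with miR-224 precursors, both at 50 nM with harvest 24 h later. Per the series' design text the arrays form 3 control and miR-224 pairs from 3 separate experiments, numbered here 1 to 3 as in the sample titles. No array of untransfected cells was analysed, so both groups share the transfection itself. One cell line at one dose and one time limits what the comparison can show, and the array values do not show how much mature miR-224 the cells held.

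In the secretory pathway, the GTPase SAR1 is loaded with GTP by PREB at ER exit sites and recruits SEC23 and SEC24, which select cargo, and then the SEC31 outer cage. Proteins that fail to fold are recognised by the lectins OS9 and EDEM, moved back through the membrane by derlins and the SEL1L and HRD1 complex, ubiquitinated by conjugating enzymes such as UBE2J1 and UBE2G2, and pulled out by the ATPase VCP. When unfolded proteins build up, the sensors IRE1 (gene ERN1), PERK (gene EIF2AK3) and ATF6 raise transcription of chaperone and degradation genes through XBP1, ATF4 and ATF6 itself. A microRNA pairs with messenger RNAs mainly through its seed, bases 2 to 8 from its 5′ end, and lowers their level or translation.

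The mature arms of miR-224 are shown because they are what the transfected precursor is made to deliver. They come from RefSeq (GRCh38.p14), minus strand, and capitals mark the seed. The exact ends of the product used were not given in the sources used here, and seed matches in the genes' transcripts were not analysed here.
hsa-miR-224-5p, chrX:151958628-151958652: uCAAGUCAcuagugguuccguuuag
hsa-miR-224-3p, chrX:151958584-151958606: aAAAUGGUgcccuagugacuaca

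Many of these genes are also known as joint targets of the UPR, so their promoters were searched for its classical elements. Each RefSeq window held 300 bases, most of them just before a gene's start, and both strands were read. A promoter window was found for 40 of the 44 genes. The ER stress element, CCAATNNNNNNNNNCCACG, which ATF6 binds together with NF-Y, occurred in 27 of 35116 windows (0.0769%) and in windows of 6 of the 40 genes (CALR, CANX, HSP90B1, HSPA5, PDIA6 and XBP1). Element II, ATTGGNCCACG, occurred in 0.0541% of windows and in 1 of the genes, HERPUD1. The core of the XBP1 and ATF6 element, TGACGTGG, occurred in 0.729% of windows and in 5 of the genes (SEC16A, SEC23A, SEC24A, UBE2J1 and VCP). The core of the ATF4 element, TGATGNAA, occurred in 3.62% of windows and in CHAC1 and HERPUD1. The first 3 share the letters CCACG on one strand or the other, but each of the 12 genes in those 3 groups is named under 1 of them. The sequences below are of genes whose values are given in full further on, with the HERPUD1 element II. Each is read on the strand that holds the element, and capitals mark its fixed letters.
HSPA5 stress element, chr9:125241386-125241414, minus-strand gene, gene strand: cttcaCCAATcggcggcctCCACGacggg
XBP1 stress element, chr22:28800598-28800626, minus-strand gene, gene strand: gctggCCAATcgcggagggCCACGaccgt
CALR stress element, chr19:12938379-12938407, plus-strand gene, opposite strand: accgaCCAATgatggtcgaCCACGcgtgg
CANX stress element, chr5:179698773-179698801, plus-strand gene, gene strand: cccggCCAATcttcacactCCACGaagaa
HERPUD1 element II, chr16:56932020-56932040, plus-strand gene, gene strand: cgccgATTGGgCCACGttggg
UBE2J1 XBP1 core, chr6:89352941-89352958, minus-strand gene, opposite strand: tgcccTGACGTGGcagta
SEC24A XBP1 core, chr5:134648601-134648618, plus-strand gene, gene strand: gtcggTGACGTGGcggcg
These matches describe letters in a window and are no evidence of binding in these cells. Many of the genes were already known as UPR targets, so the counts give no independent support. The percentages count windows, while a gene counts if any of its windows holds the element.

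All expression values below were read as log2 values, on which a difference of 1 is a doubling, although the base is not stated. Experiment 1 stood apart in both of its arrays. The actin control probe set at the 5′ end of the transcript read 4.28 on average there and 12.4 in experiments 2 and 3, while the 3′ one read 12.5 in both. Of the 43 genes, 26 had both arrays of experiment 1 above the other 4 arrays and 5 had both below, against 31.0% and 13.6% of all genes. The part of this in the differences of experiment 1 was not tested. For the cell line, 7 of 10 colon epithelial markers lay above the median of all genes (4.75) on every array, EPCAM between 10.1 and 10.8 and KRT18 between 12.1 and 12.5. KRT20, VIL1 and LGALS4, markers of differentiated colon cells, lay below it. Of 9 measured markers of blood, endothelial and stromal cells, 7 lay below it on every array, PTPRC at 2.96 or less, and COL1A1 and ACTA2 lay above it.

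In the miR-224 cells, the genes with the largest differences were 2 ubiquitin-conjugating enzymes of ER degradation with lower means (UBE2J1 and UBE2G2), the COPII GTPase SAR1B and its cargo adaptor SEC24A with higher means, the second GTPase SAR1A with a lower mean, and the calcium-binding protein CALU with a higher mean. Of the genes by which the UPR is often read, HSPA5, XBP1 and HERPUD1 differed by less than 0.1 on average, while DDIT3 stood at 0.18, HSP90B1 at 0.21 and DNAJB9 at -0.21. No gene passed the test. In limma with experiment as a block, 0 of the 43 and 0 of all 19775 genes had an adjusted p under 0.05 (percent of all genes called 0 in each direction), and the lowest adjusted p was 0.186 among these genes (UBE2J1) and 0.086 over all genes. At an unadjusted p under 0.05 the same fit held 2169 genes, 5.45% of all genes with a higher and 5.52% with a lower mean, and 6 of the 43, of which 3 were higher and 3 lower. With variances modelled robustly along the intensity, the same fit called 0.0759% of all genes upward and 0.207% downward, and again 0 of the 43. Since the list was drawn up with this contrast known, these counts describe it and support nothing further.

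Over the 43 genes, 20 means were higher and 23 lower in miR-224 cells, against 53.2% and 46.8% of all genes. The difference had the same sign in every experiment for 9 genes upward and 10 downward, against 18.3% and 14.4% of all genes. The median was -0.02, compared with 0.01 over all genes, and it stood at 0.06, -0.02 and -0.09 in experiments 1, 2 and 3. The median size of the difference, whatever its sign, was 0.15 against 0.10 over all genes, and 37 of the 43 differed by less than 0.3. Of the 6 others, all at or above the median level with one sign in every experiment, 3 were higher and 3 lower, as were 1.7% and 2.79% of all genes by the same rule. By the mean in the higher group, 41 of the 43 met the level condition, but only 10062 of the 19775 genes did. The shares over all genes are therefore not on like terms with the counts of these genes. For 40 of the 43 the 3 control arrays spanned a wider range than the mean difference, and the exceptions were UBE2J1, UBE2G2 and CALU. That range includes the shifts between experiments, which the paired differences leave out. The same share over all genes was not computed.

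**Figure D1:**
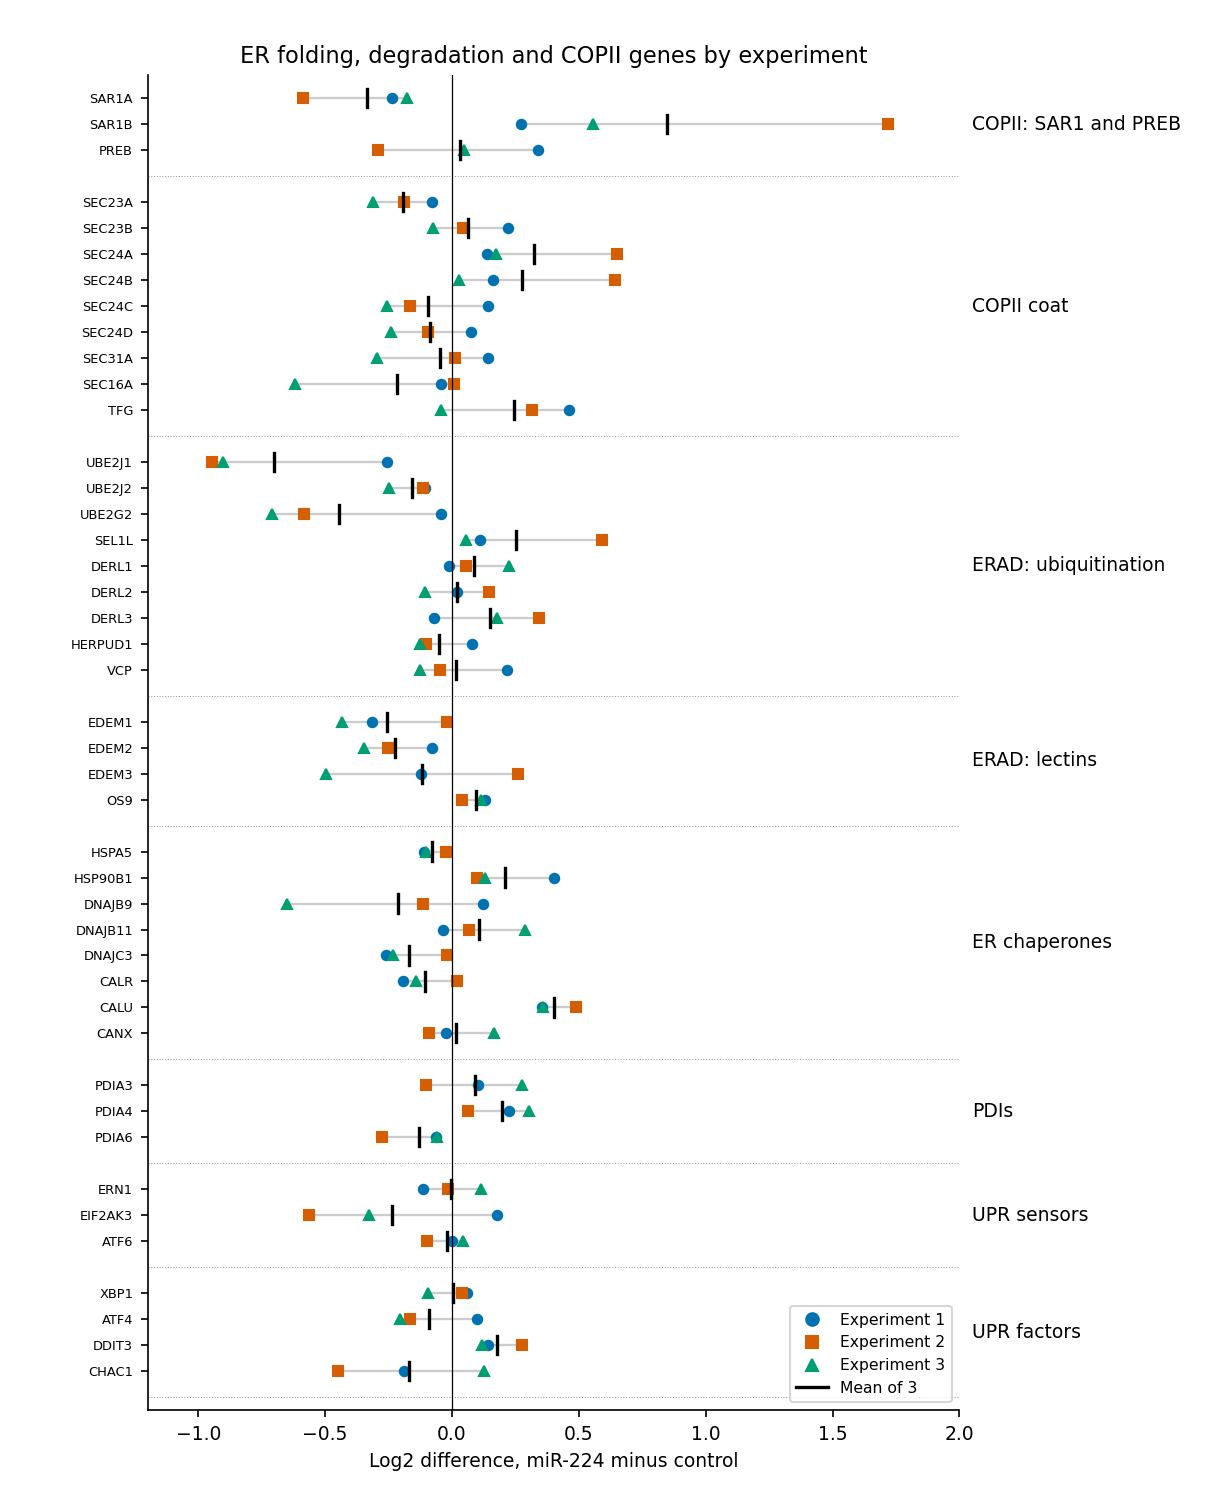
Log2 difference, miR-224 minus control, of 43 genes grouped by role (rows), with 1 marker for each of 3 experiments and a black bar for their mean. Most rows straddle or hug 0, while UBE2J1 (-0.70), UBE2G2 (-0.45), CALU (0.40) and SAR1B (0.85) lie furthest out, SAR1B mainly through experiment 2.

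**Figure D2:**
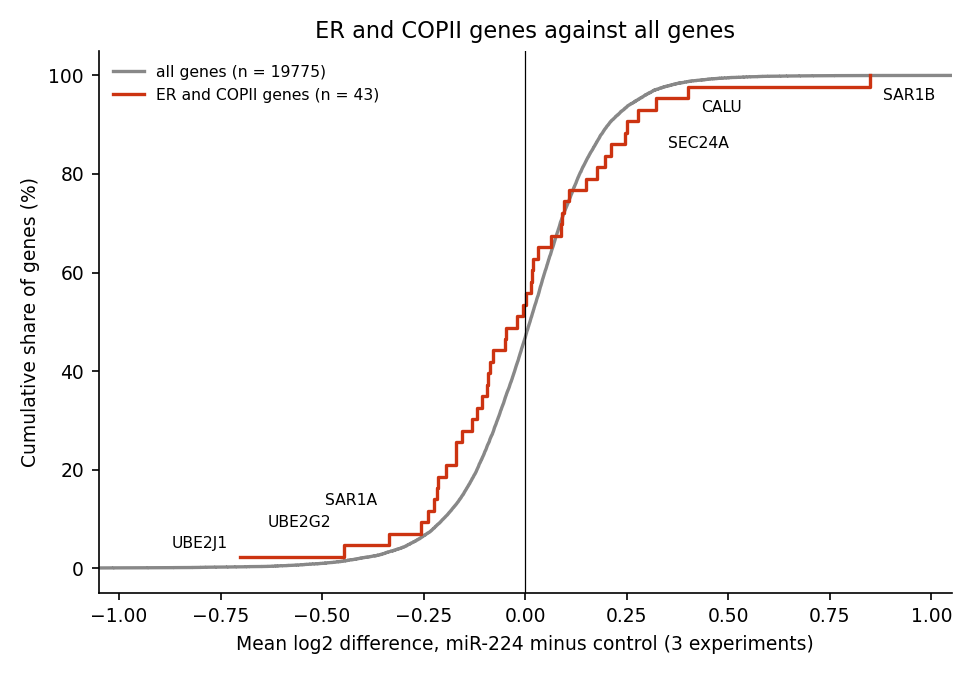
Cumulative share of genes (%) against the mean log2 difference over 3 experiments, for the 43 genes (red) and all 19775 genes (grey). The curves have medians of -0.02 and 0.01, and the 6 named genes form the ends of the red curve.

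The COPII cycle starts with SAR1, which has 2 paralogs, and these had differences of opposite sign. SAR1B, the paralog whose mutation causes chylomicron retention disease, read 7.65, 5.78 and 5.89 in control experiments 1, 2 and 3 and 7.92, 7.50 and 6.45 in the miR-224 cells. It was higher in each pair, by 0.27, 1.72 and 0.56, but the groups overlap because the experiment 1 control exceeds 2 of the miR-224 arrays. The mean difference was 0.85 ± 0.23 (SE of the blocked limma fit, n = 3 pairs, adjusted p = 0.252), and 0.41 without experiment 2.

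SAR1A read 9.78, 8.65 and 8.07 in control cells and 9.54, 8.06 and 7.90 in miR-224 cells. It was lower in each pair, by -0.24, -0.59 and -0.18, with a mean of -0.33 ± 0.12 (SE, limma adjusted p = 0.351), and without experiment 2 it was -0.21. Both groups of SAR1A span more than 1.5 between experiments, and they overlap. PREB, the exchange factor of SAR1, had no common sign, at 0.34, -0.29 and 0.05 in experiments 1, 2 and 3.

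Other probe sets bear on the SAR1 pair unequally. For SAR1B the next brightest gave 1.20, 1.86 and 0.57 and the one after it 0.06, 0.66 and 0.39, so both share the sign in every experiment. A dimmer one, still above the median level, gave -0.30, 0.64 and -0.50. The mean over all probe sets of SAR1B was 0.49. For SAR1A the next brightest probe set gave 0.15, 0.03 and 0.29, opposite in sign to the one used, and the mean over its probe sets was -0.12 in place of -0.33.

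Of the 9 genes of the COPII coat and its exit sites, 2 were higher in every experiment, 1 was lower in every experiment and 6 were mixed, with a median of -0.05. SEC24A, a cargo-binding subunit of the inner coat, read 7.70, 6.04 and 6.39 in control and 7.83, 6.69 and 6.56 in miR-224 cells. Its difference was 0.32 ± 0.13 (SE, limma adjusted p = 0.402), made up of 0.14, 0.65 and 0.18, and the groups overlap. Without experiment 2 it was 0.16, a second bright probe set gave 0.01, 0.56 and -0.18, and the mean over all of them was 0.20.

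SEC24B, its closest relative, read 8.51, 7.57 and 7.80 in control and 8.67, 8.21 and 7.83 in miR-224 cells. At 0.28 it fell just short of the size of 0.3 used to pick genes for full description, which SEC24A just reached, and it too was furthest from 0 in experiment 2. SEC24C and SEC24D, the other cargo adaptors, showed no such pattern. SEC24C read 7.86, 7.57 and 7.73 in control and 8.00, 7.40 and 7.47 in miR-224 cells, and SEC24D read 5.79, 5.22 and 4.38 against 5.87, 5.13 and 4.14. Both had a mean difference of -0.09 and a positive sign in experiment 1 alone.

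SEC23A, the GTPase-activating partner of SEC24, was the coat gene with a lower value in every pair, at -0.08, -0.19 and -0.31. Its second probe set gave -0.17, -0.21 and -0.55, but read 4.89 and 4.73 in experiment 1 against 6.65 to 7.35 elsewhere. SEC23B, the paralog of SEC23A, stood at 0.06 on average. SEC31A of the outer cage was at -0.05, and the exit site scaffold SEC16A at -0.22, made up of -0.04, 0.01 and -0.62. TFG, which organises exit sites, stood at 0.24, with 0.46, 0.32 and -0.04 in experiments 1, 2 and 3.

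**Figure D3:**
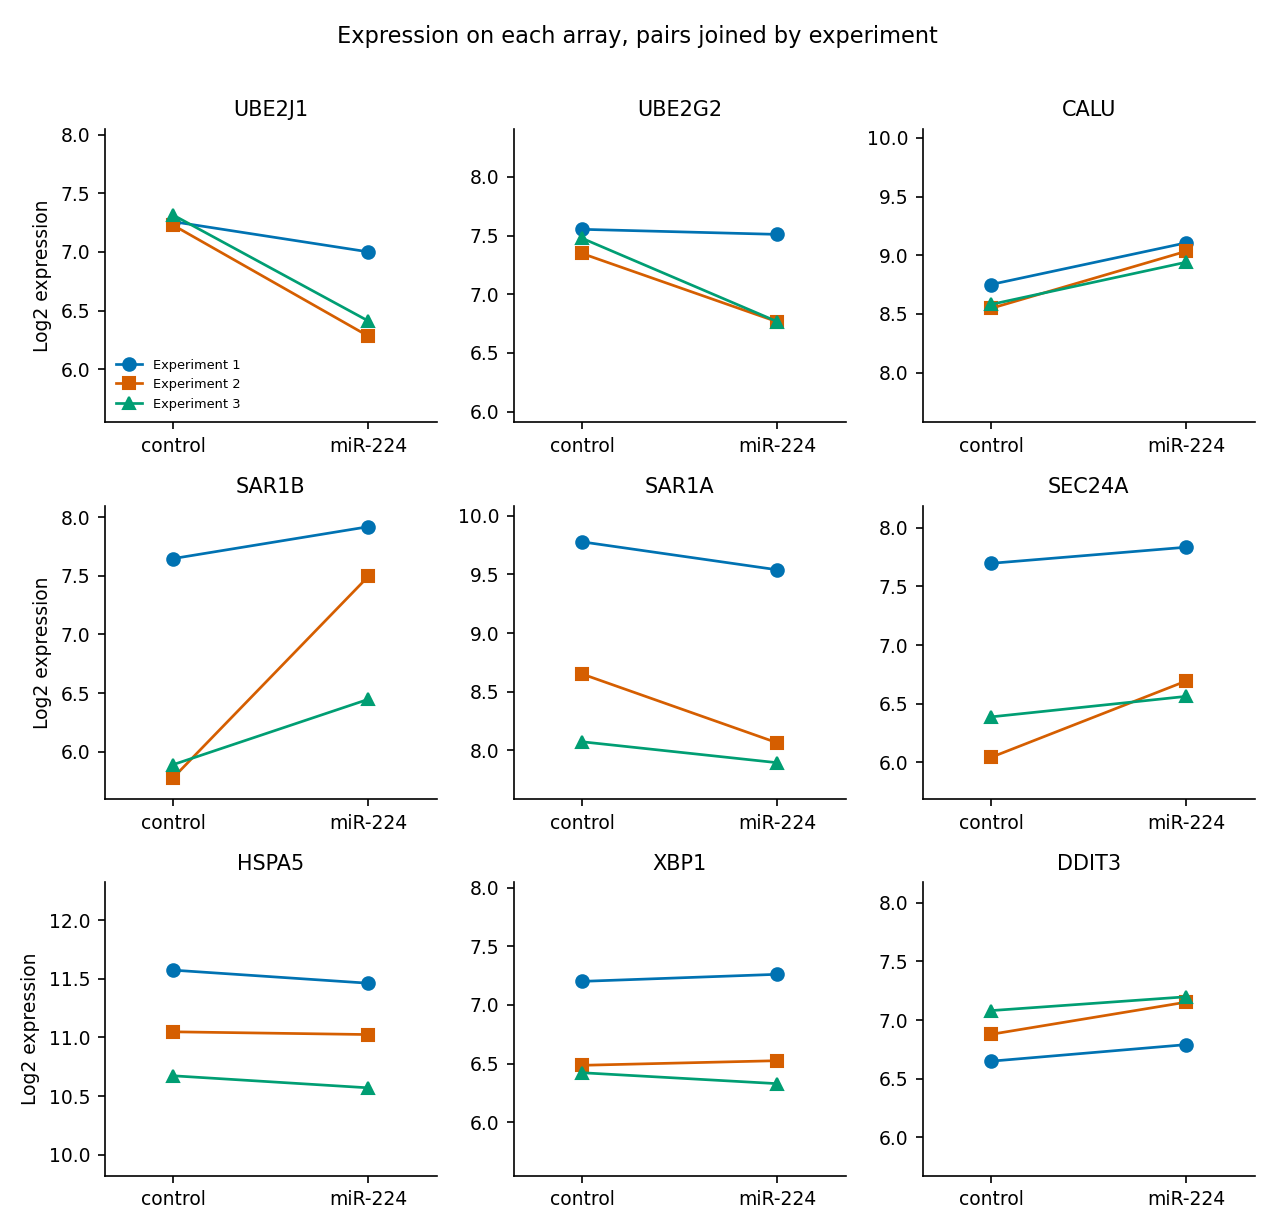
Log2 expression (y axis, each panel spanning at least 2.5 units) on the control and the miR-224 array of each experiment, joined by a line per experiment, for 9 genes. The controls of UBE2J1 lie within 0.09 of each other and all 3 lines slope down, CALU slopes up in parallel, and HSPA5 and XBP1 keep nearly level lines at a different height in each experiment.

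Among the ubiquitination genes of ER degradation, UBE2J1 had the largest difference. UBE2J1 is a ubiquitin-conjugating enzyme anchored in the ER membrane that works with the HRD1 ligase. It read 7.26, 7.23 and 7.31 in control cells and 7.00, 6.28 and 6.41 in miR-224 cells. All 3 miR-224 arrays lay below all 3 control arrays, which held for this gene alone among the 43 and for 2.11% of all genes. The mean difference was -0.70 ± 0.14 (SE, limma adjusted p = 0.186), and the pairs gave -0.26, -0.95 and -0.90. Experiment 1 thus showed the smallest difference. Without it the value was -0.92, and UBE2J1 and SAR1B then passed (limma adjusted p = 0.012 and 0.040). That fit of 4 arrays called 0.137% of all genes upward and 0.743% downward. With experiment 2 or 3 left out instead, neither passed (limma adjusted p = 0.721 and 0.384 for UBE2J1, 0.721 and 0.374 for SAR1B).

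All 6 probe sets of UBE2J1 had a lower mean, 4 of them between -0.70 and -0.59. The second brightest gave -0.23, -0.97 and -0.90, the third -0.03, -0.88 and -0.95, and the next 0.18, -0.63 and -1.00. The third read 4.76 and 4.72 in experiment 1 against 5.93 to 7.09 elsewhere, so it was low in both arrays of that experiment. The dimmest, with a mean level of 2.77, stood at -0.07. Its relative UBE2J2, also an ER-anchored conjugating enzyme, read 7.87, 7.85 and 7.68 in control and 7.77, 7.74 and 7.43 in miR-224 cells. Its difference of -0.16 had the same sign in each pair, and its probe sets split into 2 lower and 2 higher.

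UBE2G2, a soluble conjugating enzyme that is recruited to ER ligases, read 7.55, 7.35 and 7.48 in control cells and 7.51, 6.77 and 6.77 in miR-224 cells. The mean difference was -0.45 ± 0.14 (SE, limma adjusted p = 0.301), from -0.04, -0.58 and -0.71. The experiment 1 miR-224 array lies among the controls, while both others lie below them, and without experiment 1 the difference was -0.65. A second bright probe set gave -0.17, -0.84 and -0.77. A dimmer one gave 0.59, -0.64 and -0.16 and read 4.29 and 4.88 in experiment 1 against 6.64 to 7.27 elsewhere, so it was low in both arrays of that experiment. Averaged over all 4 probe sets, UBE2G2 stood at -0.27.

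**Figure D4:**
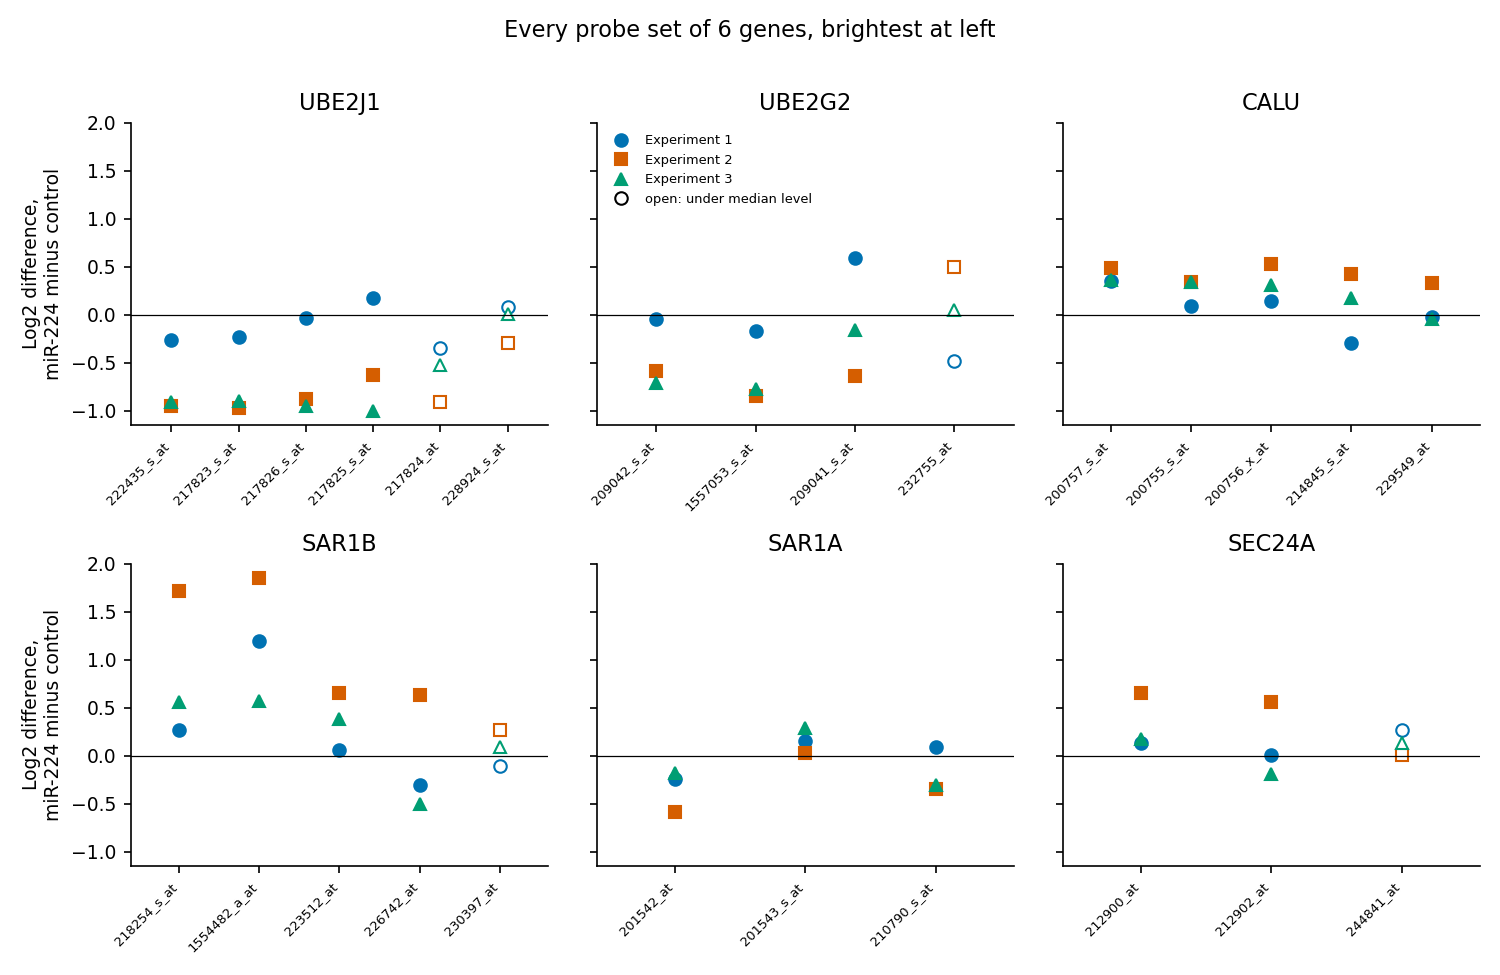
Log2 difference, miR-224 minus control, for every probe set of 6 genes (x axis, brightest at left), 1 marker per experiment and open markers for probe sets with a mean under the median of all genes. The first 4 probe sets of UBE2J1 agree on -0.63 to -1.00 in experiments 2 and 3, the first 3 of SAR1B are above 0 throughout, and those of SAR1A split in sign.

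The membrane parts of the same ligase complex had smaller differences with no common direction. SEL1L, the scaffold of the HRD1 complex, stood at 0.11, 0.59 and 0.06. DERL1, DERL2 and DERL3, the derlins, had means of 0.09, 0.02 and 0.15, none with one sign in all experiments, and DERL3 was under the median level. HERPUD1, a UPR-induced partner of the ligase, stood at 0.08, -0.10 and -0.13, and VCP at 0.22, -0.05 and -0.13. Of the 9 measured genes of this group, 1 was higher and 3 were lower in every experiment, against 18.3% and 14.4% of all genes. The 3 were the conjugating enzymes, but UBE2J2 stood at 0.0035 when all its probe sets were averaged.

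Of the 4 genes that read glycans for degradation, 3 had a lower mean, as did 46.8% of all genes. EDEM1, EDEM2 and EDEM3 trim or recognise mannose on misfolded glycoproteins, and their means were -0.26, -0.22 and -0.12. EDEM1 gave -0.31, -0.02 and -0.43 at a level under the median of all genes, EDEM2 gave -0.08, -0.25 and -0.35, and EDEM3 had no common sign. The lectin OS9 was slightly higher in each pair, by 0.13, 0.04 and 0.11. Limma adjusted p ran from 0.466 to 0.817 in these 4.

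Of the 8 ER chaperones and cochaperones, CALU differed most. Calumenin, its product, is a calcium-binding protein of the secretory pathway. CALU read 8.75, 8.55 and 8.58 in control cells and 9.11, 9.03 and 8.94 in miR-224 cells. Every miR-224 array lay above every control array, which held for no other of the 43 genes and for 4.16% of all genes. The difference was 0.40 ± 0.10 (SE, limma adjusted p = 0.242), nearly the same in each pair at 0.36, 0.49 and 0.36. All 5 probe sets had a higher mean, from 0.09 to 0.40, and 3 of them were higher in every experiment. Their average was 0.24.

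CALR and CANX, the lectin chaperones calreticulin and calnexin, also bind calcium in the ER. CALR read 9.92, 9.13 and 9.25 in control and 9.72, 9.14 and 9.11 in miR-224 cells, a difference of -0.11. A second bright probe set of CALR was lower in each pair, at -0.47, -0.20 and -0.16. The mean over all 3 of its probe sets was -0.15. CANX read 10.91, 10.79 and 10.62 against 10.89, 10.70 and 10.79, a difference of 0.02, although its other probe sets stood at 0.10 to 0.19.

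HSPA5, which encodes the main ER chaperone BiP, read 11.57, 11.05 and 10.67 in control cells and 11.46, 11.02 and 10.57 in miR-224 cells. Its controls spanned 0.90 between experiments, while the pairs differed by -0.11, -0.02 and -0.10, a mean of -0.08 ± 0.10 (SE, limma adjusted p = 0.833). Averaged with its second probe set, HSPA5 stood at -0.01. HSP90B1, the ER member of the HSP90 family, was higher in each pair, at 0.40, 0.10 and 0.13, but read 6.94 and 7.34 in experiment 1 against 8.65 to 9.03 elsewhere, and its other probe set stood at -0.08. Of the cochaperones, DNAJC3 was lower in each pair, by -0.26, -0.02 and -0.23. DNAJB9 stood at 0.12, -0.12 and -0.65 and DNAJB11 at -0.04, 0.07 and 0.29.

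The disulfide isomerases, which make and reshuffle disulfide bonds, had means within 0.20 of 0. PDIA4 was higher in each pair, at 0.23, 0.06 and 0.30, PDIA6 lower in each, at -0.06, -0.27 and -0.06, and PDIA3 mixed. None of the 3 had an adjusted limma p under 0.545.

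On their brightest probe sets, the 3 sensors of the UPR had no common sign across experiments. ERN1, which encodes IRE1, read 6.64, 5.90 and 5.20 in control and 6.53, 5.88 and 5.32 in miR-224 cells, a difference of -0.01. ATF6 read 6.68, 7.03 and 6.99 against 6.68, 6.93 and 7.03, a difference of -0.02. A second bright probe set of ATF6 was lower in each pair, at -0.06, -0.21 and -0.11, and the mean over all 4 probe sets was -0.17. EIF2AK3, which encodes PERK, read 6.08, 6.08 and 5.53 against 6.26, 5.51 and 5.20. It was thus higher in experiment 1 by 0.18 and lower in experiments 2 and 3 by -0.56 and -0.33.

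Among the transcription factors, XBP1 read 7.20, 6.49 and 6.42 in control and 7.26, 6.53 and 6.33 in miR-224 cells, a mean difference of 0.00 ± 0.10 (SE). With its second, dim probe set averaged in, it stood at 0.10. Whether the brighter one tells the spliced from the unspliced form was not tested. ATF4, the factor translated when PERK is active, read 10.29, 10.61 and 10.30 against 10.38, 10.44 and 10.10, at -0.09 on average. DDIT3, which encodes the stress factor CHOP, was higher in each pair. It read 6.65, 6.88 and 7.08 in control and 6.79, 7.15 and 7.20 in miR-224 cells, with differences of 0.14, 0.27 and 0.12 and a mean of 0.18 ± 0.10 (SE, limma adjusted p = 0.584). CHAC1, a glutathione-degrading enzyme downstream of ATF4, stood at -0.19, -0.45 and 0.13.

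Set against the promoter letters shown above, the 6 genes with the stress element ran from -0.13 (PDIA6) to 0.21 (HSP90B1), with a median of -0.04. The 5 genes with the XBP1 core ran from -0.70 (UBE2J1) to 0.32 (SEC24A), with a median of -0.19, so genes holding the same letters differed in sign. HERPUD1, with element II and the ATF4 core, stood at -0.05, and CHAC1, with the ATF4 core, at -0.17.

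The rest of the pathway was read through 5 further lists of 158 genes, of which 149 were measured. None of these genes passed the limma test either. Of 33 other genes of ER to Golgi carriers, 11 were higher and 9 lower in every experiment, with a median of 0.00. TMED10, a cargo receptor of these vesicles, had the smallest p among the lower ones, at -0.32, -1.19 and -0.70, and BET1, a SNARE for fusion with the Golgi, among the higher ones, at 0.42, 0.42 and 0.30. Of 30 translocon and glycosylation genes, 12 were higher and 6 lower, with a median of 0.04. SEC63, which helps proteins into the ER, gave 0.15, 0.83 and 0.23, and SPCS3, of the signal peptidase, gave -0.10, -0.98 and -0.58.

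Of 26 other ERAD genes, 8 were higher and 2 lower in every experiment, with a median of 0.08. HERPUD2, a relative of HERPUD1, gave 0.35, 0.90 and 0.33, and TMUB1 gave -0.02, -0.37 and -0.16. Of 30 other folding genes, 7 were higher and 5 lower, with a median of 0.01. The chaperone gene HYOU1 gave 0.52, 0.46 and 0.20, and UGGT1, the glucosyltransferase that returns misfolded glycoproteins to calnexin, gave -0.19, -0.31 and -0.45. Of 30 other UPR and integrated stress response genes, 6 were higher and 6 lower, with a median of -0.03. SLC3A2, an amino acid transporter subunit, gave 0.60, 0.10 and 0.34, and EIF2AK4, the kinase that senses amino acid lack, gave -0.26, -0.48 and -0.89. Each list's shares stand beside 18.3% and 14.4% of all genes that were higher and lower in every experiment.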

How the data were processed

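The data are 6 Affymetrix arrays hybridised with total RNA. Per the labels, the authors processed them with RMA and Partek, with versions and settings not given in the sources used here. The deposited values are taken as log2 expression per probe set, from their range of 1.47 to 13.6. RMA aligns the arrays' distributions, so a shift shared by most genes cannot be seen. Of 54675 probe sets, 41091 had 1 gene symbol, giving 19775 genes by the brightest probe set.

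Genes were fitted with limma 3.58.1 in R 4.3.3 (two-sided tests, p adjusted by Benjamini-Hochberg across the 19775 genes, called under 0.05), with experiment as a block and 2 residual degrees of freedom. The series states the pairing, and deviations from group means correlated across genes at 0.855, 0.585 and 0.771 between same-numbered arrays and at -0.753 to 0.257 otherwise. The fit was tested on simulated data. Members, lists and tests were chosen with earlier results of these data known. Values on every array are given for genes at or above the median level with one sign in all pairs and a mean difference of at least 0.3, their paralogs, CALR and CANX, which the rule set beside CALU although they are not its paralogs, and HSPA5, XBP1, ATF4, DDIT3, ATF6, ERN1 and EIF2AK3. In each further list, the gene with the smallest p in each direction is named, among those at or above the median level with one sign in all pairs. Promoter and microRNA sequences are RefSeq's (GRCh38.p14). With 3 arrays a group, their number limits the precision.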

Additional observations from a re-analysis of the deposited data

How the results depend on the processing

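Without the replicate block, limma called 0 genes, with 313 at an unadjusted p under 0.05. The median over the 43 genes was -0.02 and could not move, since complete pairs give the same mean differences without the block. With the block, an intensity trend and robust variances gave 56 genes (15 higher, 41 lower), 0 of them among the 43, where UBE2J1 came closest at an adjusted limma p of 0.056. Leaving out 1 experiment at a time gave 0 to 174 genes and medians of -0.06 to -0.001. The 174 (0.137% of genes higher and 0.743% lower) came without experiment 1, with 1 residual degree of freedom, and include UBE2J1 (limma adjusted p = 0.012, from 0.012 to 0.9999 over all alternatives) and SAR1B (0.040, from 0.040 to 0.9999). The other settings called 0 genes, namely brighter genes only, quantile normalization, median centring and both means over probe sets. The 6 genes of largest difference kept their sign under all 10 alternatives, but most of these could not turn it. The 6 were picked for one sign in every experiment, so leaving out an experiment keeps it. Dropping the block, the intensity trend and keeping brighter genes only leave each difference unchanged. A sign could turn only under quantile normalization, median centring and the means over probe sets. Averaging all probe sets turned the sign of 7 of the 43 (SEC23B, SEC31A, UBE2J2, DERL2, HERPUD1, VCP and PDIA3), and leaving out an experiment turned 4 or 5. Quantile normalization turned CANX, ERN1 and ATF6, and median centring turned VCP and XBP1. DERL3, EDEM1 and CHAC1 lie under the median level and have no value among brighter genes only.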
